A study of Mus musculus with 6 samples.

Results

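The AP-1 subunit genes examined here are the 4 FOS genes (Fos, Fosb, Fosl1 and Fosl2), the 3 JUN genes (Jun, Junb and Jund), Atf3 and the small MAF gene Maff, 9 of 18193 genes measured. They were taken by name with earlier results of these data known, so their counts are given as a description. Every probe set that the platform annotation gives to 1 of these symbols alone was used, 13 of 45037. Expression was measured on Affymetrix arrays in embryonic stem (ES) cells of mouse strain 129SV that were either wild-type or Med23 knockout, with 3 arrays per genotype labelled as biological replicates. Cells of both genotypes were kept under steady culture, given fresh complete ES cell medium for 24 hours and harvested in Trizol. How the knockout was made, and whether the replicates come from 1 or several clones, is not stated in the sources used here, so the p values measure only the spread between these samples. The targeted gene encodes a subunit of Mediator, the complex that carries signals from DNA-bound factors to RNA polymerase II.

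AP-1 is a family of dimers rather than a fixed protein. FOS proteins bind DNA together with JUN partners, while JUN proteins pair with FOS or with each other. ATF3 and the small MAF proteins belong to the same leucine-zipper network and can act as partners or repressors. Several of these genes are immediate early genes: their transcription rises within minutes of growth factor or stress signals, through serum response and cAMP response elements that are read by SRF with its ELK partners and by CREB and ATF proteins. In work on reprogramming, AP-1 is known as a barrier to the pluripotent state that ES cells hold.

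Promoter sequences were available for 8 of the 9 genes (RefSeq, GRCm38.p6), with 3 start sites for Maff and 1 for each other gene. The 120 bases before the start are printed for the 4 genes that fell and had the largest changes in size among those with a sequence, and for the middle start site of Maff, which did not pass the test. They are given 5′ to 3′ on the gene's own strand. Capitals mark matches to the core of the cAMP response element (TGACG, or CGTCA on the other strand), to the full element TGACGTCA, to the related JUN-type site TGACATCA and to the TATA box TATAAA.
Jun, chr4:95052223-95052342, minus strand: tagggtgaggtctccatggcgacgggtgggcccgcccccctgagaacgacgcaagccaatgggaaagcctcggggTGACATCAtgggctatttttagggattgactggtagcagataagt
Junb, chr8:84978749-84978868, minus strand: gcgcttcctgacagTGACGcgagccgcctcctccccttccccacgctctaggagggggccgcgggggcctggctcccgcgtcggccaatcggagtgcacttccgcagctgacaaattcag
Atf3, chr1:191183334-191183453, minus strand: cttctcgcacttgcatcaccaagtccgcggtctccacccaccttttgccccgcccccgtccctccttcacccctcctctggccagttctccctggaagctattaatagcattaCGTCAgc
Fos, chr12:85473770-85473889, plus strand: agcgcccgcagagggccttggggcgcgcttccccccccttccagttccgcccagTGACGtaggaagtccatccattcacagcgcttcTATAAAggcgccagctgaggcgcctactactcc
Maff, chr15:79347400-79347519, plus strand: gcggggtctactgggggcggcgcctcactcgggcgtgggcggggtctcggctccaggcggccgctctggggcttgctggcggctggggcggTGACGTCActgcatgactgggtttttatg

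Both strands of the 250 bases before each start were searched, except for the TATA box, which was searched on the gene's strand. The core TGACG, which is also part of the full element, was found in 5 of the 8 genes (Fos, Fosb, Junb, Atf3 and Maff) and in 17.8% of 32851 mouse promoters of the same length. The full element TGACGTCA was found in Maff alone among them, at its middle start site, and in 1.55% of all promoters. TGACATCA lay 45 to 38 bases before the start of Jun and at the same distance from the last start site of Maff, and 2.93% of all promoters hold it. TATAAA was found in Fos, 33 to 28 bases before its start, and in 7.59% of all promoters. The GC box GGGCGG was found in 6 of the 8 genes, all but Junb and Jund, against 32.7% of all promoters. The windows that held it were 58.4% to 68.8% G and C, against a median of 52.4% over all promoters. Junb was at 66.4% and Jund at 47.6%. The shares were not adjusted for G and C content, and Maff was counted over its 3 start sites while the shares are per promoter. The AP-1 site TGACTCA (4.46% of all promoters) and the CArG box bound by SRF (1.47%) had no match in these windows. Sequence further than 250 bases before the start was not searched, so the genes may hold either element upstream of the window. No motif searched was found in all of the genes that fell, and Jund matched none of them.

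Of the 9 genes, 6 fell in the knockout, none rose and 3 did not pass the test (limma, Benjamini-Hochberg adjustment over all probe sets, adjusted p under 0.05). Over all genes 10.4% were lower by the same rule and 8.53% higher. Among the 11823 genes with a group mean above 4.62, the median over all probe sets (the array-wide median), 14.9% were lower. Jun showed the largest change and was the only one of the 9 lower at least 2-fold, which 1.93% of all genes were. Junb, Atf3, Fosl1, Fos and Jund followed, whereas Fosb, Fosl2 and Maff did not pass. The median log2 fold change (knockout minus wild-type) was -0.58 over the 9 genes, against 0.02 over all genes. At an unadjusted p under 0.05, 7 genes were lower and none higher, the seventh being Fosb, whose values were low enough to be background. The share of all genes at that unadjusted cut was not counted, here or for the lists below, so these counts have no background beside them. Groups did not overlap in 7 of the 9 genes, all lower in the knockout; the same held for 19.5% of all genes. A knockout culture with fewer cells that express these genes and one with less RNA per cell cannot be told apart in such bulk samples.

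**Figure D1:**
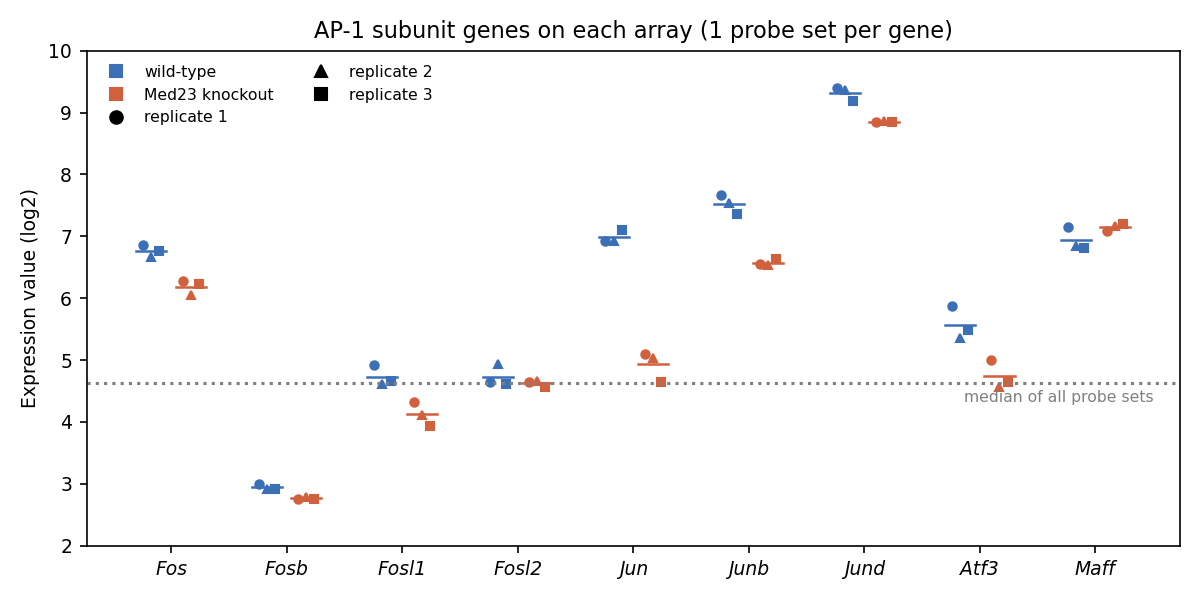
Expression values (log2) of the 9 AP-1 subunit genes on each of the 6 arrays, with 1 probe set per gene; blue is wild-type, orange Med23 knockout, the point shape gives the replicate and short lines the group means. Jun shows the widest gap between the groups, and Fosl2 and Maff overlap between them; heights of different genes are not comparable.

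The arrays were alike in scale, with medians of 4.61 to 4.64. Wild-type replicate 1 stood apart: 752 of its probe sets were under the average of its fellow arrays by 2-fold or more. It was the highest wild-type array for 7 of the 9 genes here. Med23 itself was 8.95, 8.86 and 8.84 in wild-type and 7.40, 7.37 and 7.33 in knockout replicates 1, 2 and 3, a difference of -1.52 on the log2 scale (SE 0.06, adjusted p = 2.69e-05 by limma). Whether its probe set lies within the deleted part is not stated in the sources used here. The 10 ES cell markers, among them Pou5f1, Nanog and Sox2, had a mean level of 11.9 to 12.1 on the wild-type arrays and 12.0 on the knockout arrays, so markers of the labelled cell type were bright on every array.

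Jun encodes c-JUN, the most strongly activating JUN protein and the main substrate of the JNK kinases. Probe set 1417409_at read it at 6.92, 6.93 and 7.11 in wild-type replicates 1, 2 and 3 and at 5.10, 5.04 and 4.65 in knockout replicates 1, 2 and 3. All 3 knockout arrays lay at least 1.82 log2 units below every wild-type array. The means were 6.99 ± 0.11 and 4.93 ± 0.25 (SD, n = 3 each), a difference of -2.06 on the log2 scale (SE 0.13, adjusted p = 0.000129 by limma), or 4.16-fold lower. The knockout mean was close to the array-wide median, which leaves the extent of the fall uncertain. A further probe set of Jun, 1448694_at, gave 4.79, 4.97 and 4.66 in wild-type and 4.18, 4.47 and 4.20 in knockout arrays. It was also lower (log2 fold change -0.52, SE 0.11, adjusted p = 0.0228 by limma), near the array-wide median in both groups. That call was lost without wild-type replicate 2 (adjusted p = 0.0717), without knockout replicate 1 (adjusted p = 0.084) and without knockout replicate 3 (adjusted p = 0.0868). The direction of Jun was the same in both probe sets, and its mean over both was a log2 fold change of -1.29.

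Junb encodes JUNB, a JUN protein that is a weaker activator than c-JUN at many sites and is itself an immediate early product. Its probe set gave 7.66, 7.53 and 7.36 in wild-type and 6.55, 6.54 and 6.63 in knockout replicates 1, 2 and 3. The groups were separated by 0.73 log2 units, well over the SD of either group (0.15 and 0.05). The log2 difference came to -0.94 (SE 0.09, adjusted p = 0.000668 by limma), or 1.92-fold lower. Both group means lay well above the array-wide median.

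Jund encodes JUND, the JUN protein that is present in most resting cells and depends least on stimulation. Probe set 1449117_at gave 9.40, 9.37 and 9.18 in wild-type and 8.84, 8.87 and 8.84 in knockout replicates 1, 2 and 3. The knockout arrays were nearly equal (SD 0.01) and lay below all wild-type arrays. The log2 difference came to -0.46 (SE 0.08, adjusted p = 0.00744 by limma), the smallest in size of the 6 falls. Probe set 1440265_at of Jund, below the array-wide median on average in both groups, pointed the other way: it gave 4.44, 4.27 and 4.28 in wild-type and 4.64, 4.50 and 4.43 in knockout arrays, with overlapping groups and a log2 fold change of 0.20 that did not pass (adjusted p = 0.192 by limma). With the mean of both probe sets in place of the brighter one, Jund no longer passed (log2 fold change -0.13, adjusted p = 0.22 by limma).

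Fos encodes c-FOS, the founding FOS protein and the textbook serum-induced gene. Its probe set gave 6.87, 6.67 and 6.76 in wild-type and 6.27, 6.05 and 6.22 in knockout replicates 1, 2 and 3. Every knockout array lay below every wild-type array, by at least 0.40. The means of 6.77 ± 0.10 and 6.18 ± 0.11 (SD, n = 3 each) gave a difference of -0.58 on the log2 scale (SE 0.09, adjusted p = 0.00481 by limma), or 1.5-fold lower. Fosb encodes FOSB, a close relative that is induced with c-FOS. It was read at 3.0, 2.91 and 2.92 in wild-type and at 2.76, 2.79 and 2.75 in knockout arrays, all below the array-wide median. The groups did not overlap, but the difference of -0.18 did not pass (95% interval -0.32 to -0.04, adjusted p = 0.105 by limma). Detection calls were not used here, so values this low may be background.

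Fosl1 encodes FRA1 and Fosl2 FRA2, FOS-related proteins without the strong activation domain of c-FOS. For Fosl1, probe set 1417487_at gave 4.92, 4.61 and 4.65 in wild-type and 4.33, 4.11 and 3.94 in knockout replicates 1, 2 and 3. The groups were 0.28 apart, and the log2 difference came to -0.60 (SE 0.12, adjusted p = 0.0196 by limma). The call was lost without knockout replicate 2 (adjusted p = 0.0711) or without knockout replicate 3 (adjusted p = 0.0648), and the values lie around the array-wide median. The other probe set of Fosl1, 1417488_at, ran from 3.01 to 3.63 over all 6 arrays with overlapping groups (log2 fold change -0.16, adjusted p = 0.583 by limma).

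The 2 probe sets of Fosl2 gave different answers. Probe set 1422931_at, the brighter of them, was 4.64, 4.94 and 4.62 in wild-type and 4.65, 4.66 and 4.57 in knockout arrays; the groups overlapped and the difference of -0.11 did not pass (95% interval -0.34 to 0.13, adjusted p = 0.565 by limma). Probe set 1437247_at was 4.13, 3.90 and 3.98 in wild-type and 3.10, 3.31 and 3.05 in knockout arrays. There the groups did not overlap and the log2 difference came to -0.85 (SE 0.10, adjusted p = 0.00148 by limma), although every value was below the array-wide median. With the mean of both probe sets Fosl2 passed (log2 fold change -0.48, adjusted p = 0.00236 by limma), so whether Fosl2 counts as lower depends on the probe set used. Where each probe set lies along the transcript is not stated in the sources used here.

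**Figure D2:**
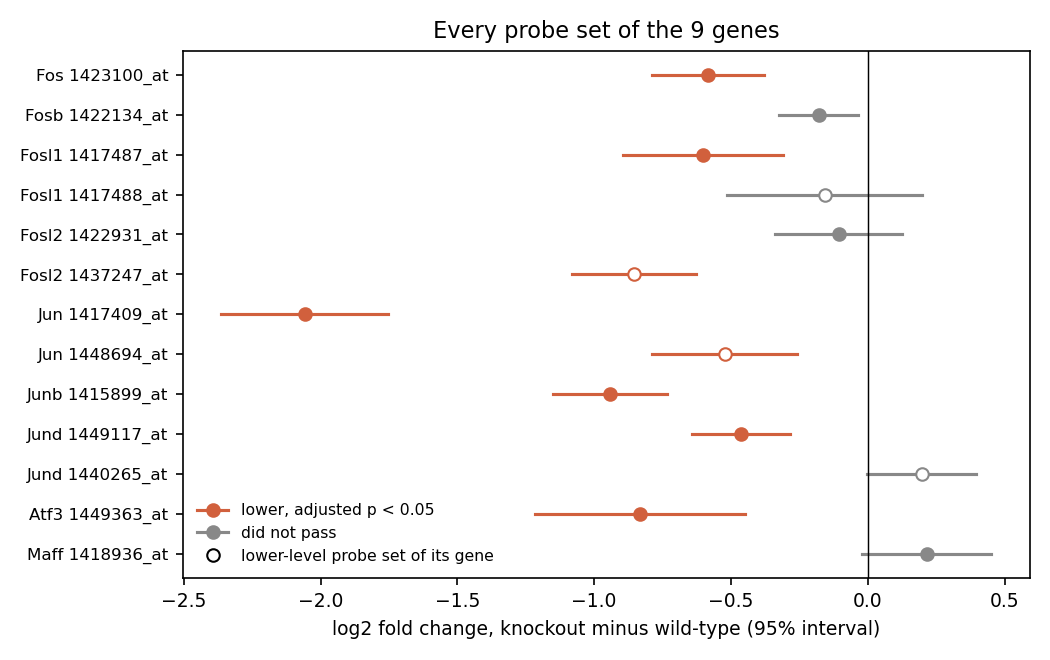
Log2 fold change (knockout minus wild-type) with its 95% interval for all 13 probe sets of the 9 genes; orange probe sets were lower at an adjusted p under 0.05 and open circles are the dimmer probe set of a gene that has 2. In total 8 of the 13 passed, all lower, and the probe sets of Fosl1, Fosl2 and Jund disagree on whether their gene passed.

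Counted by probe set, 8 of 13 were lower, none was higher and 5 did not pass, against 7.43% lower and 6.69% higher of all 45037 probe sets. The dimmer probe sets of Jun and Fosl2 were among the 8. Without knockout replicate 3 the count of lower probe sets was 5.

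Atf3 encodes ATF3, a stress-induced partner of JUN proteins that represses many targets as a homodimer. It was read at 5.87, 5.35 and 5.49 in wild-type and at 5.0, 4.57 and 4.65 in knockout replicates 1, 2 and 3. The groups did not overlap, but both were spread out, with SDs of 0.27 and 0.23, the widest wild-type spread of the 9 genes. The log2 difference came to -0.83 (SE 0.16, adjusted p = 0.0155 by limma), or 1.78-fold lower. The knockout mean of 4.74 was close to the array-wide median, which leaves the extent of this fall uncertain too. Wild-type replicate 1 was 0.45 above the mean of the other wild-type arrays, and without it the log2 fold change was -0.68 (adjusted p = 0.0243). The call was lost without knockout replicate 2 (adjusted p = 0.0617) or without knockout replicate 3 (adjusted p = 0.0612).

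Maff encodes MAFF, a small MAF protein that pairs with other zipper proteins and also with NRF2 at antioxidant response elements. It was the one gene of the 9 with a positive difference. It gave 7.15, 6.85 and 6.81 in wild-type and 7.09, 7.17 and 7.20 in knockout replicates 1, 2 and 3. Wild-type replicate 1 lay within the knockout values, and the other wild-type arrays lay below all of them. The difference of 0.22 did not pass (95% interval -0.02 to 0.45, adjusted p = 0.228 by limma). Without wild-type replicate 1 Maff was higher by 0.32 (SE 0.07, adjusted p = 0.0259 by limma), and the 6 genes counted as lower stayed at 6. Its direction was thus opposite to that of Jun, Junb, Fos and Atf3 whichever arrays were used, while its call rests on 1 array.

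The mean level over the 9 genes was 6.27, 6.13 and 6.10 in wild-type and 5.62, 5.53 and 5.50 in knockout replicates 1, 2 and 3. The SDs of the 9 genes ran from 0.05 to 0.27 in wild-type, with a median of 0.15, and from 0.01 to 0.25 in the knockout, with a median of 0.06. Leaving out 1 array at a time gave 4 to 6 genes lower. The 4 genes lower without knockout replicate 2 or without knockout replicate 3 were Fos, Jun, Junb and Jund.

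The position of the genes was examined because some genes of the related lists lay among neighbours that were lower together, as given for chromosome 14 further on. The 9 genes lie on 8 chromosomes, with Junb and Jund both on chromosome 8. For each gene the 10 measured genes on either side were taken. Of these 180 neighbours, 10 were lower, 20 were higher and their median log2 fold change was 0.04. Jun, Junb, Atf3 and Fosl1 had the lowest log2 fold change of the 21 genes in their window. The median of the 20 neighbours was 0.08 for Jun, -0.03 for Junb, 0.02 for Atf3, 0.03 for Fosl1, 0.09 for Fos and 0.07 for Jund. With dim neighbours passed over in favour of genes above the array-wide median, the medians of the 9 windows lay between -0.06 and 0.11. None of the 9 genes thus sat in a window whose genes were lower together. Beside Jund, the predicted gene Gm3336, picked out after its value was seen, was lower by a larger amount (log2 fold change -1.78).

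**Figure D3:**
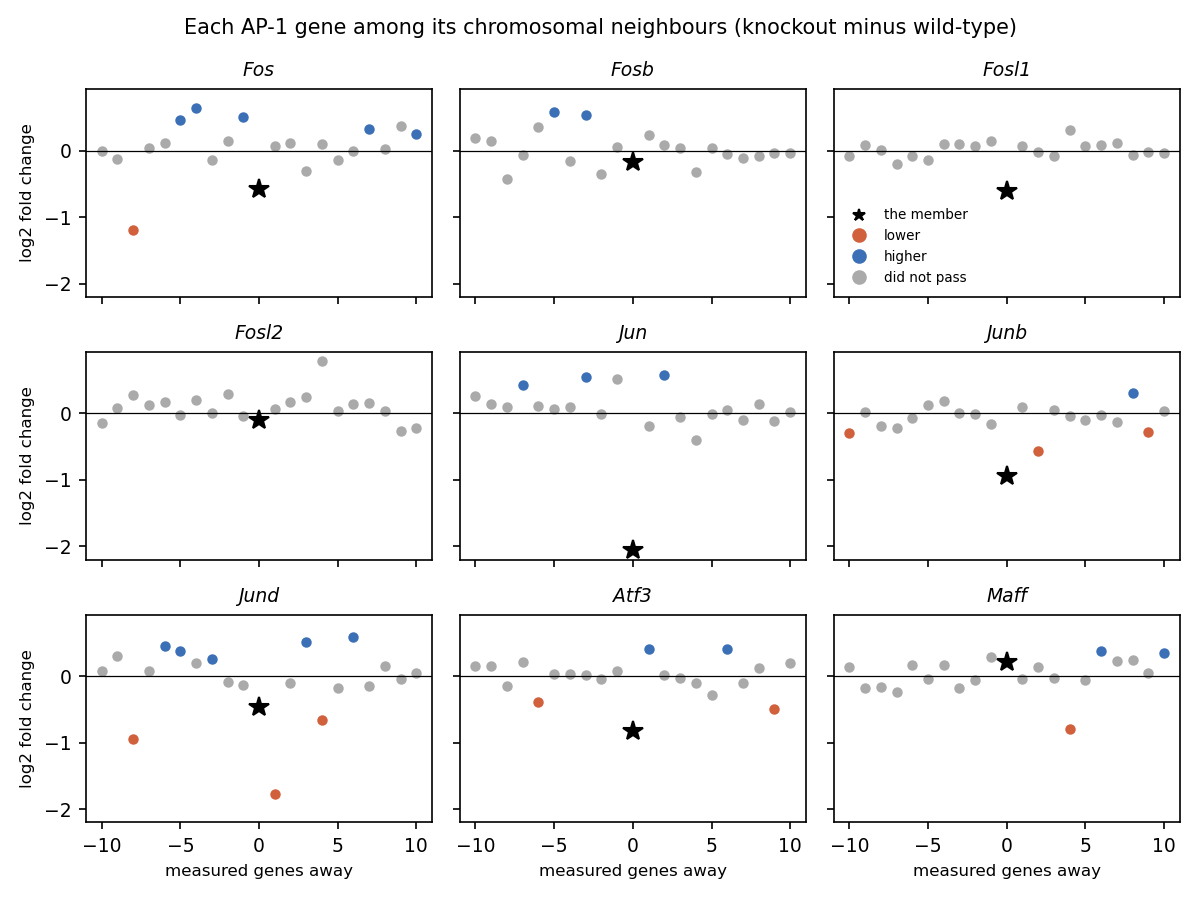
Log2 fold change (knockout minus wild-type) of each of the 9 genes (star) and of the 10 measured genes on either side in chromosomal order; orange and blue neighbours were lower and higher at an adjusted p under 0.05, grey ones did not pass. Jun, Junb, Atf3 and Fosl1 lie below all of their neighbours.

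Other members of the zipper network were described by a list. Of its 17 measured genes of BATF, JDP2, ATF2, large and small MAF, BACH and NRF proteins, 1 rose, none fell and 16 did not pass (limma); at an unadjusted p under 0.05, 1 was higher and 1 lower. Their median log2 fold change was 0.07. Bach1, which encodes a repressor that pairs with small MAF proteins, rose by 0.36 (SE 0.06, adjusted p = 0.00949 by limma). The other small MAF genes did not pass, with log2 fold changes of -0.10 for Mafg (95% interval -0.26 to 0.06) and -0.22 for Mafk (95% interval -0.42 to -0.02). Atf2, a JUN partner at TGACATCA-type sites, was 8.35 on wild-type replicate 1 and 9.36 to 9.60 on the other 5 arrays and did not pass (log2 fold change 0.51, adjusted p = 0.295 by limma).

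Of 20 measured genes of the JNK, ERK and p38 kinase pathways, 3 fell, 2 rose and 15 did not pass. Their median was 0.01. These pathways phosphorylate JUN, FOS and the ELK factors. Over all genes 10.4% were lower and 8.53% higher, and 14.9% of genes above the array-wide median were lower. The counts of this list were close to those shares. Mapk8, the gene of JNK1, was 8.37, 8.40 and 8.60 in wild-type and 7.67, 7.69 and 7.73 in knockout replicates 1, 2 and 3 (log2 fold change -0.76, SE 0.08, adjusted p = 0.0011 by limma). Of its 5 probe sets, 2 passed, both lower. It lies on chromosome 14, where the 20 nearest genes above the array-wide median had a median of -0.64 and 14 of them were lower. With dim neighbours kept in, the 20 nearest genes had a median of -0.02 and 2 were lower. Mapk9, the gene of JNK2, did not pass (0.09, adjusted p = 0.454 by limma). Mapk13, a p38 kinase gene, fell by 0.54 and Rps6ka3, the gene of the ERK-activated kinase RSK2, rose by 0.37, the latter by 1 of 3 probe sets.

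Of 14 measured factors that act on the Fos and Jun promoters, 2 fell, none rose and 12 did not pass. Their median was -0.02. The share that fell was close to the 10.4% over all genes and the 14.9% over genes above the array-wide median. At an unadjusted p under 0.05, 1 factor was higher (limma). Elk3, an SRF partner of the ternary complex family, was 8.20, 8.05 and 7.91 in wild-type and 7.17, 7.20 and 7.01 in knockout arrays (log2 fold change -0.93, SE 0.10, adjusted p = 0.00101 by limma), by 2 of its 4 probe sets. Mef2d fell by 0.48, by 1 of 3 probe sets. The transcripts of Srf (-0.17, 95% interval -0.34 to 0.00), Elk1 (0.10, 95% interval -0.08 to 0.29) and Elk4 (-0.09, 95% interval -0.22 to 0.05) did not pass. Creb1 was 7.39 on wild-type replicate 1 and 8.72 to 8.89 on the other arrays and did not pass (adjusted p = 0.551 by limma). Of 12 measured regulators of FOS and JUN protein, 2 rose and 1 fell, against 8.53% higher and 10.4% lower over all genes. Those that rose were Cop1 (0.27) and Det1 (0.34), which encode parts of a ubiquitin ligase for c-JUN; the one that fell was Trib1 (-0.44), a pseudokinase gene whose protein binds COP1 and which the list of other immediate early genes also holds. Det1 and Trib1 each passed by 1 of 2 probe sets.

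Among 25 measured genes described as AP-1 targets in other cells, 10 fell, 1 rose and 14 did not pass, and the median was -0.14. S100a6, a calcium-binding protein gene, was 11.55, 11.41 and 10.95 in wild-type and 8.49, 8.77 and 8.55 in knockout replicates 1, 2 and 3 (log2 fold change -2.70, SE 0.16, adjusted p = 9.88e-05 by limma). Lgals3, a galectin gene, fell by 1.59 and Mmp14, a membrane metalloprotease gene, by 1.26, the latter by 2 of 3 probe sets. Lgals3 and Mmp14 also lie on chromosome 14 among genes lower together, where the 20 nearest brighter genes had medians of -0.79 and -0.76 and the 20 nearest genes of any level -0.50 and -0.48. Vim, the vimentin gene, was the 1 that rose (0.23). Whether AP-1 binds any of these genes in ES cells was not measured.

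The AP-1 genes were set beside 32 other immediate early genes, of which 17 fell, 2 rose and 13 did not pass, with a median of -0.36. Those with the largest changes were Egr1 (-4.88), Ccn1 (-1.78) and Ccn2 (-1.38). Both lists thus had more lower than higher genes. The shares that fell, 6 of 9 and 17 of 32, were not tested against each other.

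**Figure D4:**
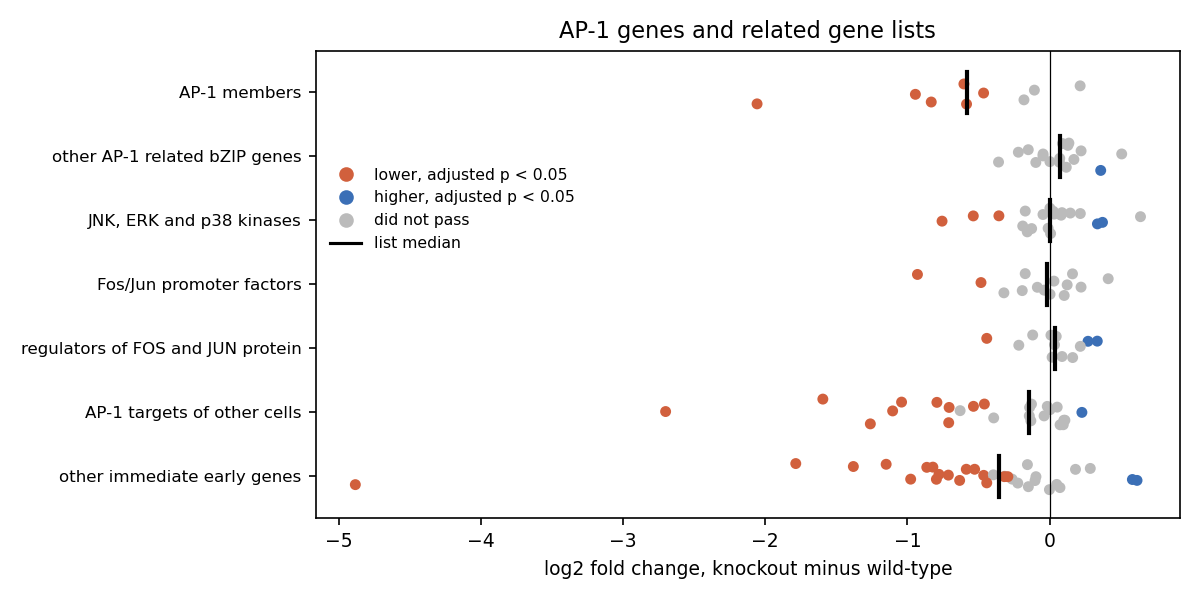
Log2 fold change (knockout minus wild-type) of each measured gene in the AP-1 list and in 6 related lists, 1 point per gene, with black lines at the list medians; points are spread vertically for sight only. The medians are -0.58 for the AP-1 genes, -0.14 for AP-1 targets of other cells and -0.36 for other immediate early genes. Those of the other zipper genes, kinase pathway genes, promoter factors and protein regulators lie between -0.02 and 0.07. In these lists 3 kinase pathway genes, 2 promoter factors and 1 protein regulator fell.

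AP-1 genes are also expressed in differentiated cells that an ES culture can hold, and markers of such cells moved between the groups. Of 17 endoderm markers 14 fell and none rose, with the mean level per array at 7.28 to 7.65 in wild-type and 5.49 to 5.59 in knockout; at an unadjusted p under 0.05, 14 were lower and none higher (limma). The 3 with the largest changes were Col4a2 (-3.71), Col4a1 (-3.41) and Dab2 (-3.38). Of 11 trophoblast markers 4 fell and none rose (6.35 to 6.51 against 5.83 to 5.89; 4 lower and 1 higher at an unadjusted p under 0.05), led by Krt8 (-2.52), Krt7 (-1.91) and Krt18 (-1.67), while Cdx2 (-0.27) and Eomes (0.41) did not pass. The median over the 11 was -0.10, so the keratin genes made up most of the lower mean level. Of 12 fibroblast markers 4 fell and 1 rose, with mean levels of 4.65 to 4.79 against 4.49 to 4.53, near the array-wide median; Tgfbi (-0.79), Thy1 (-0.73) and Timp3 (-0.51) had the largest changes, with Tgfbi passing by 2 of 4 probe sets and Timp3 by 3 of 4. Of 9 measured mesoderm markers 2 fell, Twist1 (-0.61) and Snai1 (-0.41). The mean levels of that list were 4.69 to 4.80 in wild-type and 4.65 to 4.68 in knockout, near the array-wide median. Snai1 was below that median on average in both groups, and the mesoderm marker T was not measured. Of 10 neural markers 3 fell and 2 rose, with Olig2 (-2.34), Pax6 (2.21) and Map2 (-1.49) changed most. Map2 passed by 1 of 4 probe sets and Pax6 by 3 of 5. Among the 10 ES cell markers, Fgf4 (-0.37) and Tdgf1 (-0.28) fell and 8 did not pass; Fgf4 passed by 2 of 4 probe sets. The part of these cell types in the AP-1 values was not tested. Without wild-type replicate 1, 14 endoderm, 4 trophoblast, 4 fibroblast and 1 mesoderm markers were lower. In that setting 1 promoter factor and 3 kinase pathway genes were higher. There, 15 other immediate early genes were lower and 3 higher, and of the ES cell markers 1 was lower and 2 were higher.

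The genes whose values moved most like those of Jun and Fos were found by the root mean square difference between log2 values centred on each gene's mean over the 6 arrays. For Jun these were Gbp2 (0.10), Fgf15 (0.12), Ceacam20 (0.13), Gbp2b (0.13) and Sfn (0.14), with Pearson r of 0.991 to 0.997 over the 6 arrays. Their log2 fold changes ran from -2.25 for Ceacam20 to -1.87 for Fgf15. For Fos they were Ndrg2 (0.04), Apobr (0.04), Pafah2 (0.04), Mboat7 (0.04) and Elovl1 (0.05), with r of 0.987 to 0.994 and log2 fold changes of -0.61 to -0.53. No AP-1 gene was among them. Predicted genes and clones were skipped in this search, so some of those may lie nearer than the genes named. Measured against Jun, Junb was the nearest of the AP-1 genes, at a difference of 0.60. Fosl1 and Jund were about equally near to Fos, at 0.12 each. By Pearson r, Atf3 was the AP-1 gene nearest to Fos (0.971), above Fosl1 (0.930). Such r values reflect mainly the gap between 2 groups of 3 arrays and are given as a description.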

How the data were processed

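The values used are those the authors deposited, on a log2 scale for 6 arrays; that scale was inferred from their range, as no base is stated. The submitters' processing notes name RMA and MAS5, with no role given. No further normalization was applied. The table holds 45101 probe sets, of which 64 controls were dropped; 34945 had 1 symbol, 932 several and 9160 none in the platform annotation, and 34741 were given current symbols through RefSeq (GRCm38.p6). A gene was read by its probe set with the highest mean, as for the related lists. Groups were compared with limma 3.58.1 in R 4.3.3 (lmFit, eBayes, 4 residual degrees of freedom), two-sided, adjusted over 45037 probe sets, and the fit was tested on simulated data. The number of arrays limits the precision.

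The members and gene lists were chosen with earlier results of these data known. Named genes were the 9 members, Med23, up to 3 genes per list that passed with the largest changes (the 2 lowest p where none passed), and the 5 genes most like Jun and Fos; other names, such as those with values given to show that they did not pass, were chosen after their values were seen. Alternatives were quantile normalization, median centring, a filter on low values, limma-trend, array weights, the replicate number as a block, the mean of a gene's probe sets and leaving out each array.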

Additional observations from a re-analysis of the deposited data

How the results depend on the processing

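The signs of all 9 genes and 13 probe sets held under every alternative that gave them a value. Fos, Jun and Junb passed in all 13. The replicate block kept 6 genes and 8 probe sets lower and changed the call of no AP-1 probe set, but gave 1915 probe sets higher over the whole table in place of 3013. Same-numbered arrays did not deviate together (r of -0.13, -0.06 and 0.00), and arrays with other numbers gave r of -0.11 to 0.12. So few arrays cannot show whether same-numbered ones were handled together. With the filter on low values 5 AP-1 probe sets were lower in place of 8, since the filter removed those of Fosb and Fosl1 and the dimmer ones of Jun, Fosl2 and Jund. Leaving out 1 array at a time gave 4 to 6 genes and 5 to 8 probe sets lower, 0 to 1 genes and 0 to 1 probe sets higher, and among all probe sets 2289 to 3613 lower and 1497 to 3494 higher. The count of all higher probe sets fell furthest on leaving out knockout replicate 2 (1497), then knockout replicate 3 (1549), knockout replicate 1 (1710) and wild-type replicate 2 (1826). The median log2 fold change over all probe sets was 0.02 with quantile normalization and 0.03 with median centring, as against 0.03 as deposited. Among the values of single genes and probe sets under alternatives, 149 kept their side of the threshold, 8 lost it and 2 gained it (Maff without wild-type replicate 1, Fosl2 with the mean of its probe sets). Levels around the array-wide median or under it limit what can be said of the size of a change. This holds for Fosb, Fosl1 and Fosl2, and for the knockout arrays of Jun and Atf3.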
